A study of Rangifer tarandus with 8 samples.

Results

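The genes described here encode WNT ligands, their Frizzled receptors and the secreted inhibitors of the SFRP and DKK families. They were taken by name from the gene annotation through which the study assigned open chromatin to genes. All protein coding records whose symbol was WNT, FZD, SFRP or DKK followed by a number (and, for WNT, an A or B) were kept. This gave 37 genes, of 17591 protein coding genes with a symbol and 21861 protein coding genes in all: 19 WNT, 10 FZD, 4 SFRP and 4 DKK genes.

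The study profiled chromatin accessibility in single cells from the dermis of adult reindeer (Rangifer tarandus) in 8 libraries. Velvet, the skin of the growing antler, and back skin were each taken unwounded (day 0) and 7 days after 12 mm full-thickness excisions, and velvet moved to the back was collected at 6 weeks from 2 animals, and later at 3 months and at 6 months. Apart from the 6-week grafts, each condition was 1 library; the sources used here do not state the sex or genotype of the animals. The reads were aligned to the cattle (Bos taurus) genome, so each position, length and exon below belongs to the cattle assembly ARS-UCD1.2 and to no sample. Accessibility values were not analysed here, no condition was compared with another, and the sequences of these genes are not shown.

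WNT proteins are secreted, lipid-modified signals. They bind the extracellular cysteine-rich domain of Frizzled receptors, which cross the membrane many times, and with the co-receptors LRP5 and LRP6 stabilise β-catenin, or act through routes without β-catenin that set cell polarity and movement. SFRP proteins carry a Frizzled-like cysteine-rich domain and bind WNT ligands outside the cell, whereas DKK proteins bind the co-receptors. In skin the pathway is known for starting hair follicles and for its action in dermal fibroblasts, and in bone for driving osteoblast formation.

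The 19 WNT genes lay on 9 chromosomes, and 8 of them (42.1%) sat within 100 kb of another WNT gene, in 4 pairs. Among the 10622 genes whose symbol root (the letters before the number) is held by more than 1 gene, 12.1% had a gene of the same root within that distance. Roots were matched by letters alone, whatever their number of genes, so this share was not matched to a family of 19. In 3 of the 4 pairs the genes pointed away from each other, so that the starts faced one another across the gap, and in the other pair both genes ran the same way. No gene of any kind was annotated in 3 of the 4 gaps.

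**Figure D1:**
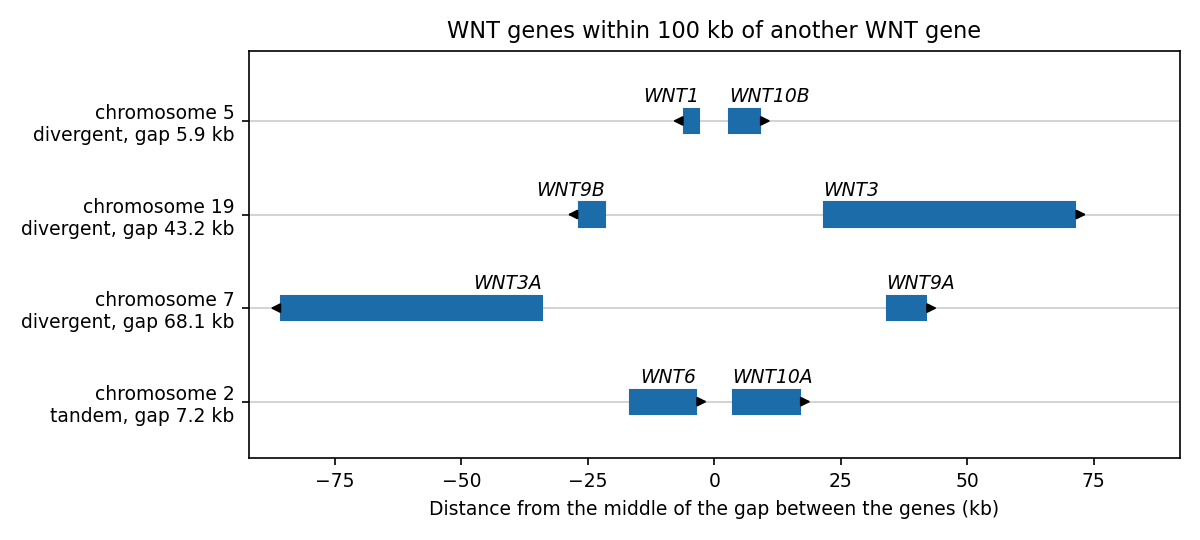
Map of the 4 pairs of WNT genes within 100 kb of each other, each centred on the middle of its gap, with distance in kb on the x axis. Bars are gene bodies and arrowheads point in the direction of transcription; the gap is 5.89 kb for WNT1 and WNT10B and 68.1 kb for WNT3A and WNT9A.

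WNT1, the founding member of the family and a signal of the midbrain and neural crest, and WNT10B, a signal of bone, fat and hair follicle, formed the closest pair. On chromosome 5, WNT1 spanned 30832513 to 30835596 on the minus strand and WNT10B spanned 30841487 to 30847512 on the plus strand. Their bodies were 5.89 kb apart, and the whole locus measured 15.0 kb.

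WNT6 and WNT10A, both active in the epidermis, were the only pair in tandem. On the plus strand of chromosome 2, WNT6 ran from 106822087 to 106835094 and WNT10A from 106842324 to 106855593. The gap between them was 7.23 kb, but their starts were 20.2 kb apart, because the body of WNT6 lies between them. WNT10A and WNT10B, the related genes of these 2 pairs, thus differed in arrangement: WNT10B was divergent from its neighbour and WNT10A was downstream of its own.

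The other 2 pairs had the same composition, 1 gene of the WNT3 type beside 1 of the WNT9 type, with the same orientation. WNT3A, a classic activator of β-catenin, spanned 3035810 to 3087361 on the minus strand of chromosome 7, and WNT9A spanned 3155441 to 3163239 on the plus strand. The gap of 68.1 kb held a single annotated gene, a long noncoding RNA of 1200 bases on the minus strand (ENSBTAG00000050075, 3135255 to 3136454). On chromosome 19, WNT9B spanned 45336095 to 45341333 on the minus strand and WNT3 spanned 45384549 to 45434296 on the plus strand, 43.2 kb apart. In both pairs the WNT3-type gene was the longer, at 51.6 kb for WNT3A against 7.80 kb for WNT9A, and at 49.7 kb for WNT3 against 5.24 kb for WNT9B.

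The remaining 11 WNT genes stood alone, and the coding genes next to them were not WNT genes. Chromosome 5 also carried WNT5B and WNT7B, chromosome 2 also carried WNT4, and chromosome 7 also carried WNT8A, none of them within 1 Mb of another WNT gene. Across the 4 classes the 37 genes used 17 chromosomes, led by chromosome 2 with 5 members (WNT4, WNT6, WNT10A and the receptor genes FZD5 and FZD7). The only members of different classes within 1 Mb of each other were SFRP1 and DKK4 on chromosome 27, which shared a strand and were 963 kb apart with 17 genes between them.

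Genes with a single exon were found among the receptors and not among the ligands or inhibitors. A gene's exons were counted in the transcript with its longest coding sequence. Of the 10 Frizzled genes, 6 (60%) had a single exon: FZD1, FZD2, FZD5, FZD7, FZD8 and FZD10. None of the 19 WNT, 4 SFRP and 4 DKK genes did, and of all named protein coding genes 7.97% had a single exon. The median was 1 exon for FZD, 3 for SFRP, 4 for WNT and 4.5 for DKK, against 8 for all named coding genes, and the 31 genes with introns had between 2 and 8 exons.

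**Figure D2:**
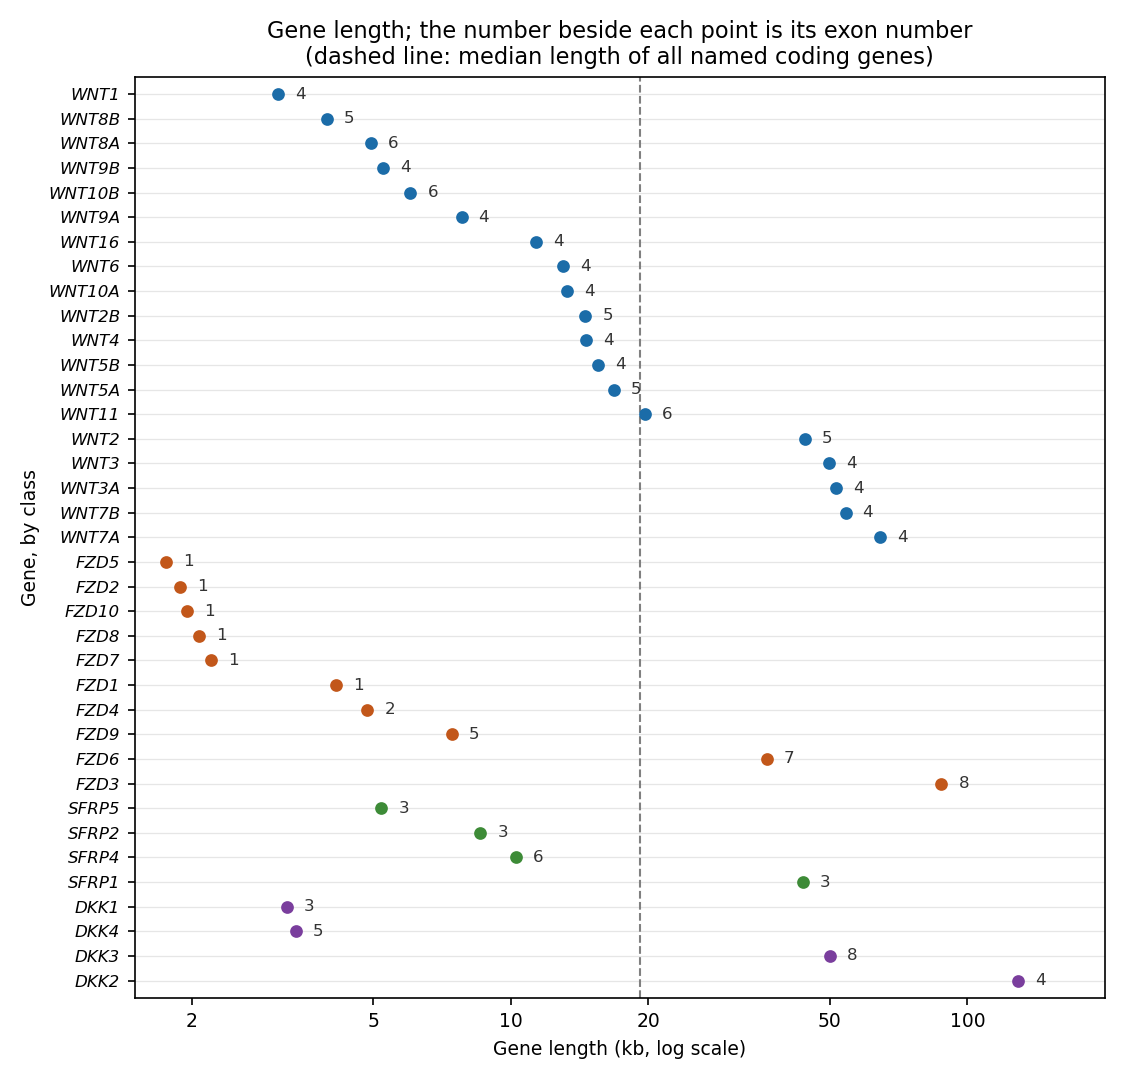
Gene length in kb (log scale) of each of the 37 genes, coloured by class, with the exon number printed beside each point and the median length of all named coding genes, 19.2 kb, as a dashed line. The 6 single-exon Frizzled genes lie between 1.76 and 4.15 kb, and DKK2 is the longest gene at 129 kb.

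Of the single-exon receptors, 5 were the shortest of the 37 genes, and FZD1 was longer than WNT1, WNT8B, DKK1 and DKK4. They ranged from FZD5 at 1.76 kb (chromosome 2, 96039164 to 96040921), a receptor active in gut and eye, to FZD1 at 4.15 kb (chromosome 4, 8665915 to 8670064), with a median of 2.02 kb. Coding sequence filled 99.8% of FZD5, 99.9% of FZD8, 90.0% of FZD2, 89.1% of FZD10, 78.0% of FZD7 and 46.6% of FZD1. FZD5 and FZD8 had no untranslated region (UTR) annotated at either end, while FZD1 had 440 bases of 5′ UTR and 1772 bases of 3′ UTR. Apart from a microRNA gene of 70 bases on the same strand inside the exon of FZD8 (ENSBTAG00000047440), no gene overlapped any of the 6.

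Introns were annotated in FZD3, FZD4, FZD6 and FZD9. FZD4, known as the receptor for norrin in retinal vessels, had 2 exons, parted by an intron of 2.16 kb after 285 coding bases. FZD3 and FZD6, receptors of the planar polarity route that orients hairs, had 8 and 7 exons over 87.7 and 36.3 kb. Their coding structures matched: both held coding exons of 197, 1018 and 149 bases, with introns of phase 0, 2 and 0 around the exons of 197 and 1018 bases, where phase is the number of bases of a codon that lie before the intron. FZD3 had an additional coding exon of 51 bases after the exon of 1018 bases, which its other transcript lacked. The encoded proteins had 683 (FZD3) and 714 (FZD6) codons, and FZD8 had 690, against 524 to 645 in the other 7 receptors.

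FZD9 stood apart from the single-exon receptors. Its 5 exons gave a coding sequence of 524 codons, the shortest of the class, and its introns measured 989, 67, 72 and 4721 bases. No other member had an intron of 72 bases or less. An intron under 100 bases was annotated in 3 of the 31 members with introns (9.68%), namely FZD9, WNT8A at 96 bases and SFRP4 at 94. The share was 26.9% among all named coding genes with more than 1 exon. Intron number was not matched: the 31 members had 2 to 8 exons, and all named coding genes had a median of 8. FZD9 had no annotated UTR, and the last 527 bases of its body (7.10%) lay within BAZ1B, a chromatin remodelling gene on the opposite strand. Whether its introns are transcribed as annotated was not tested.

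**Figure D3:**
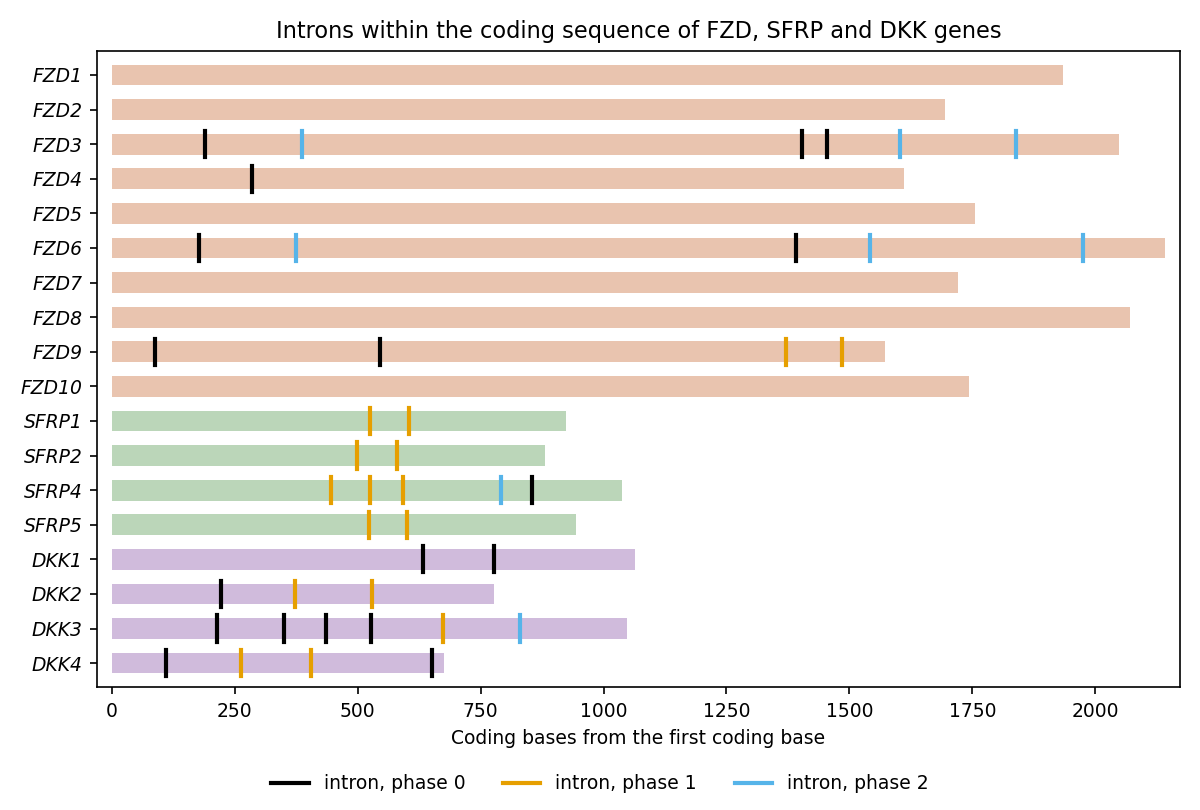
Coding sequence of the FZD, SFRP and DKK genes as bars, with coding bases from the first coding base on the x axis and each intron as a vertical line coloured by its phase. FZD3 and FZD6 share 1018 bases between introns of phase 2 and phase 0, and the 4 SFRP genes each have 2 phase 1 introns 78 or 81 bases apart.

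Among the ligands, 4 was both the smallest and the most frequent number of exons. WNT8A, WNT10B and WNT11 had 6, the most in the class. In WNT10B 2 of these held no coding sequence, and in WNT11 1 did not. Coding sequences ran from 999 bases in WNT8B to 1755 in WNT4, with a median of 1086 bases.

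Counted from the end of the coding sequence, the introns of the ligand genes fell in the same places. All 19 WNT genes had a phase 0 intron between 456 and 543 coding bases before the end, a range that the members themselves set. Of all named coding genes, 19.7% had a phase 0 intron in that range. In 15 of the 19 genes the coding introns included phases 2, 1 and 0 in succession, and in 11 these were the only coding introns. Of the genes with at least 4 coding exons, 15 of 18 WNT genes (83.3%) had this succession, against 22.3% of all named coding genes. WNT genes descend from common ancestors, so these are not independent cases.

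**Figure D4:**
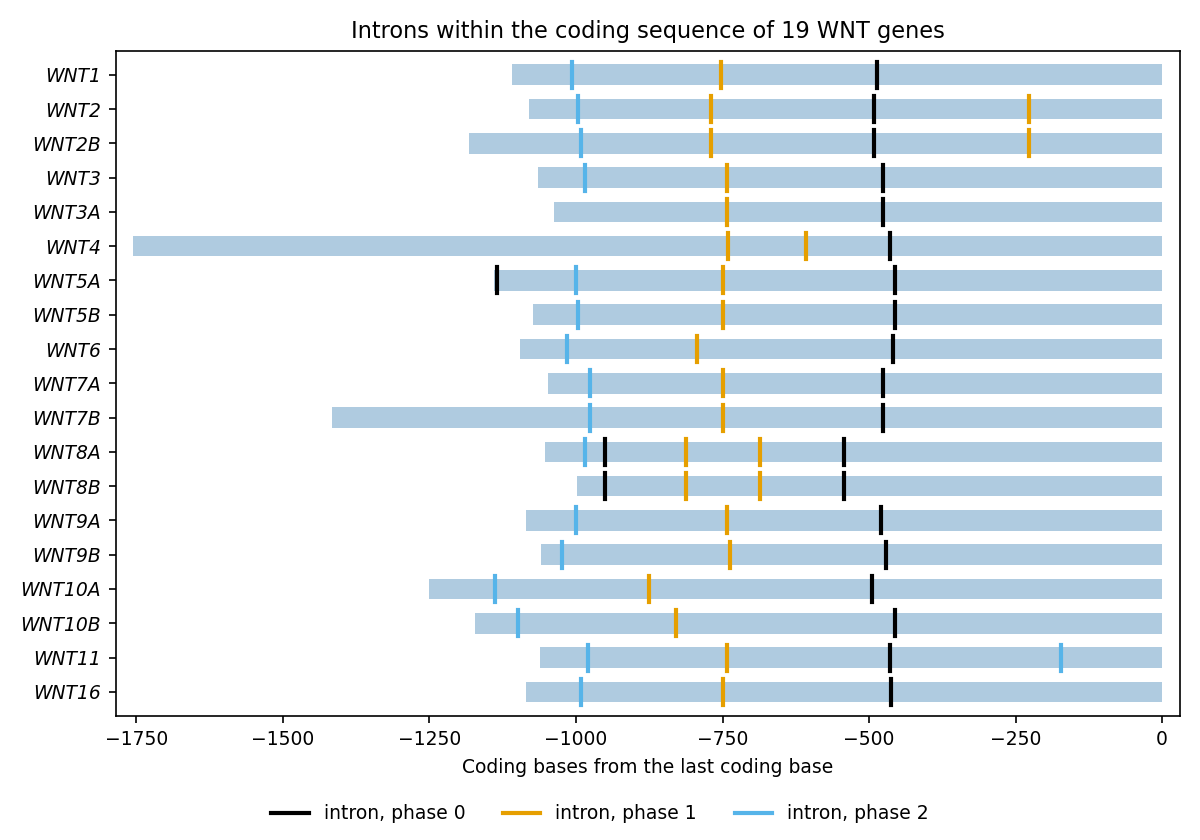
Coding sequence of the 19 WNT genes as bars aligned at the last coding base, with coding bases before it on the x axis and each intron as a vertical line coloured by its phase. A phase 0 intron lies 456 to 543 bases before the end in every gene, WNT4 and WNT7B have the longest bars, and WNT2, WNT2B and WNT11 carry an additional intron nearer the end.

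The next intron upstream was of phase 1 and lay 737 to 875 coding bases before the end in 16 genes. The other 3, WNT4, WNT8A and WNT8B, had 2 successive phase 1 introns, at 740 and 608 bases in WNT4, a signal of kidney and female reproductive tract, and at 812 and 686 bases in both WNT8 genes. In all 3 the exon that followed the downstream intron of this pair was 143 coding bases long. The phase 2 intron was found in 16 genes, 976 to 1138 bases before the end, and was missing from WNT3A, WNT4 and WNT8B. In WNT4 the whole upstream part was a single coding exon of 1015 bases, and 585 codons were annotated, the most of any ligand.

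Further introns were found in 6 ligands. WNT8A and WNT8B each had another phase 0 intron, 951 coding bases before the end. WNT2 and WNT2B, signals of lung and other internal organs, each had a phase 1 intron 227 coding bases before the end. WNT11, which acts in cell movement, had a phase 2 intron 172 bases before the end. WNT5A, the main ligand of the route without β-catenin, opened with a coding exon of 6 bases in front of an intron of 5885 bases, an exon that WNT5B lacked.

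Of the 7 sets of 2 ligands with the same number, 5 had at least their last 2 coding exons equal in length. The last 4 coding exons of WNT8A and WNT8B were equal at 139, 126, 143 and 543 bases, and the last 3 of WNT2 and WNT2B at 278, 265 and 227 bases. WNT7A, which patterns the dorsal limb, and WNT7B shared 227, 272 and 477 bases, WNT3 and WNT3A shared 266 and 477, and WNT5A and WNT5B shared 293 and 456. No coding exon at the end matched between WNT9A and WNT9B (480 and 471 bases) or between WNT10A and WNT10B (495 and 456 bases). Gene length differed 3.03-fold between WNT2 (44.1 kb) and WNT2B (14.6 kb) and 2.20-fold between WNT10A (13.3 kb) and WNT10B (6.03 kb), but only 1.04-fold between WNT3 and WNT3A and 1.08-fold between WNT5A (16.8 kb) and WNT5B (15.6 kb).

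The ligand genes had a median length of 14.6 kb, from WNT1 at 3.08 kb to WNT7A at 64.2 kb (chromosome 22, 58146712 to 58210942), and 13 of 19 were shorter than the 19.2 kb median of all named coding genes. Of the 5 longest ligand genes, a single intron made up most of 3. In WNT3, intron 1 measured 44.0 kb, or 88.5% of the gene, and in WNT3A intron 1 measured 38.5 kb (74.7%). WNT7A differed from these, since its longest intron, 41.7 kb (64.9%), was its intron 3, the last of the gene. In WNT7B (54.1 kb) and WNT2 the longest intron took 41.5% and 40.4% of the gene. WNT4 (14.6 kb), WNT6 (13.0 kb), WNT16 (11.3 kb), a ligand known for its effect on cortical bone, and WNT11 (19.7 kb) lay in the middle of the range, and WNT8A (4.95 kb) and WNT8B (3.95 kb) at its lower end.

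The 4 SFRP genes shared 2 phase 1 introns. An exon 1 with 445 to 526 coding bases was followed by an exon of 78 bases in SFRP1 and SFRP5 and of 81 bases in SFRP2 and SFRP4. SFRP1, SFRP2 and SFRP5 had only these 2 introns. SFRP4, which is known for its role in bone and in dermal fibroblasts, had 3 more, of phases 1, 2 and 0, and so 6 exons. FRZB, which is also called SFRP3 but whose symbol falls outside the naming rule, had the same 5 phases as SFRP4 in the same order, 6 exons, and equal lengths of 66 and 64 coding bases in exons 3 and 5.

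Lengths within this class varied more than exon structure. SFRP1 spanned 43.6 kb (chromosome 27, 36211720 to 36255293), of which its intron 2 took 34.3 kb, whereas SFRP5 spanned 5.20 kb with the same 3 exons. SFRP2 measured 8.57 kb and SFRP4 10.3 kb. All 4 had UTRs at both ends, and SFRP1 had the longest 3′ UTR among them, 3103 bases.

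The 4 DKK genes differed widely in length and in exon number. DKK2 was the longest of the 37 genes at 129 kb (chromosome 6, 18125623 to 18254810), and its intron 1 of 123 kb made up 95.4% of it, so that coding sequence filled 0.601%. DKK1, the best known inhibitor of the LRP co-receptors and a gene active in the dermis of palms and soles, spanned 3.23 kb (chromosome 26, 6846290 to 6849518), and DKK4 spanned 3.39 kb. DKK3, a divergent member that is not a typical WNT inhibitor, spanned 49.97 kb in 8 exons, with coding introns of phases 0, 0, 0, 0, 1 and 2.

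The transcript chosen for DKK1 decided how far it resembled its relatives. With the longest coding sequence (355 codons) it had coding exons of 633, 144 and 288 bases and introns of phases 0 and 0. Its other transcript, of 265 codons, had coding exons of 243, 157, 144 and 251 bases and introns of phases 0, 1 and 1. That order of phases was shared by DKK2, with exons of 222, 151, 156 and 248 bases, and by the first 3 introns of DKK4, with exons of 111, 151, 144 and 245 bases before an exon of 24.

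More than 1 transcript start was annotated for 8 of the 37 genes (21.6%), against 34.1% of all named coding genes. A gene with 1 transcript can have only 1 start. The 37 genes had 46 annotated transcripts, each with its own start, against 32387 transcripts for the 17591 named coding genes. The 8 genes with more than 1 start were WNT3A, WNT7B, WNT9A, WNT9B, FZD3, FZD6, DKK1 and DKK3, and no SFRP gene was among them. Only WNT9A had 3 starts, and the other 7 had 2. Single-start genes thus made up 15 of 19 ligands, 8 of 10 receptors and 6 of 8 inhibitors.

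**Figure D5:**
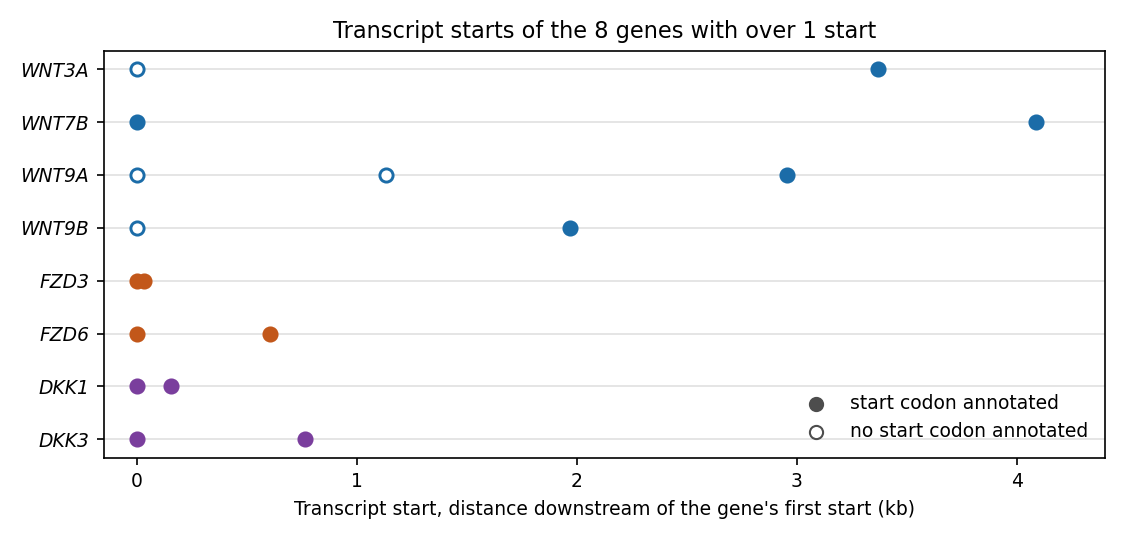
Transcript starts of the 8 genes with more than 1 start, as distance in kb downstream of each gene's first start; filled points are transcripts with an annotated start codon and open points those without. The WNT starts spread over 1.97 to 4.09 kb, and those of the FZD and DKK genes lie within 0.765 kb.

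In the ligands the annotated starts were far apart and changed the annotated beginning of the protein. WNT7B had starts 4.09 kb apart, and the downstream one opened a coding exon of 440 bases in place of 71, giving 472 codons in place of 349. The shorter WNT7B form had coding exons of 71, 227, 272 and 477 bases, equal in all 4 to WNT7A. WNT3A had starts 3.37 kb apart with coding sequences of equal length, 346 codons each, and the transcript from the upstream start had no annotated start codon. WNT9A had starts 1.13 and 2.96 kb downstream of its first, with 350, 362 and 295 codons in order of position, and a start codon only for the last. WNT9B had starts 1.97 kb apart with exon 1 coding 35 or 17 bases, and again a start codon only for the downstream one. Of the 4 genes in the WNT3 and WNT9 pairs, 3 thus had more than 1 start, and WNT3 had 1. In these 3 genes no transcript had a 5′ UTR, so each start was the first coding base of its transcript. Whether transcription begins there was not tested. Of the ligands with more than 1 start, only WNT7B had a 5′ UTR at each, of 177 bases upstream and 71 downstream.

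In receptors and inhibitors the starts were closer. Those of FZD3 were 34 bases apart and those of DKK1 155 bases apart. FZD6 had starts 604 bases apart that led to the same coding sequence of 714 codons, with 371 or 870 bases of 5′ UTR. DKK3 had starts 765 bases apart and shared 6 coding exons between its transcripts, which had 349 and 332 codons.

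For 11 of the 37 genes (29.7%, against 30.3% of all named coding genes) the chosen transcript had no 5′ UTR, so that the start of that transcript is the first coding base. These were WNT3A, WNT5A, WNT8A, WNT8B, WNT9A, WNT9B, FZD4, FZD5, FZD8, FZD9 and DKK4. A start codon was also missing from WNT8B, WNT9A and WNT9B. These were 3 of the 37 genes, against 678 of the 17591 named coding genes. A promoter window drawn upstream of these starts is anchored to coding sequence; how far the true start lies from it was not tested. Among the paired ligands, WNT1, WNT3, WNT6, WNT10A and WNT10B did have a 5′ UTR, of 36 to 526 bases.

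Signac scores a gene by default from fragments over its body and 2 kb upstream, and these windows were mostly free of other coding genes. A shared window was found for 3 of the 37 genes (8.11%), against 29.7% of all named coding genes. The window of WNT2B lay wholly inside that of ST7L, a gene of 142 kb on the opposite strand (chromosome 3, 30702703 to 30844632), and of all named coding genes 2.46% lay wholly inside others. FZD9 shared 5.59% of its window with BAZ1B, and DKK2 shared 2.43% with an unnamed coding gene of 1193 bases on the opposite strand within its intron 1. Fragments in the WNT2B window cannot be assigned to WNT2B rather than ST7L by position alone. None of the paired WNT genes shared a window with its partner at 2 kb. With 5 kb upstream, WNT1 and WNT10B shared 50.8% and 37.3% of their windows with each other, and FZD3 and SFRP4 also met a neighbour.

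As a pool, other genes of the pathway had a higher median length and exon number. Of 48 listed genes 47 were found and PYGO2 was not. The 47 had medians of 46.9 kb and 11 exons, against 10.3 kb and 4 exons for the 37 ligands, receptors and inhibitors. The difference was smaller in some lists. The 6 other secreted inhibitors had medians of 16.5 kb and 4.5 exons. The medians were 26.7 kb and 4.5 exons for DKK, and 9.42 kb and 3 exons for SFRP. The 3 genes for ligand release and inactivation had a median length of 10.9 kb, but a median of 12 exons. None of the 47 had a single exon, 21 (44.7%) had more than 1 start, and 9 (19.1%) shared a window, against 7.97%, 34.1% and 29.7% of all named coding genes in the same order. These start counts were made without merging nearby starts. The lists were written from general knowledge of the pathway and were not tested against each other.

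The genes for ligand release and inactivation ranged from PORCN at 10.6 kb to WLS at 116 kb with 3 starts. PORCN is the enzyme that adds the WNT lipid, and WLS the carrier that takes WNT to the cell surface. NOTUM, which removes the lipid, measured 10.9 kb. The 6 other secreted inhibitors ran from SOSTDC1 at 4.25 kb to WIF1 at 92.3 kb with 2 starts, and DKKL1 shared 42.0% of its window with TEAD2. The 2 WIF1 starts lay within 500 bases of each other. All 7 other receptor and co-receptor genes were longer than the median of named coding genes, from SMO, the Frizzled relative that carries hedgehog signals, at 24.3 kb and 12 exons to ROR2 at 236 kb. ROR2 shared 54.2% of its window with an unnamed coding gene, more than DKKL1 shared. RYK had the most starts in that list, 5. The 9 genes of R-spondins, their LGR receptors and the E3 ligases that remove Frizzled receptors from the membrane ran from RSPO1 at 21.4 kb to ZNRF3 at 173 kb, and ZNRF3 also had the most starts, 3.

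Among DKK receptors and membrane inhibitors, KREMEN2 measured 3.94 kb and TMEM131L, with 35 exons and 2 starts, 175 kb. The 2 TMEM131L starts lay within 500 bases of each other. In the cytoplasmic relay the scaffold gene DVL2 was the shortest at 8.20 kb and GSK3B, a kinase of the β-catenin destruction complex, the longest at 215 kb. APC, a scaffold of that complex, had 6 starts. In this list 9 of the 11 genes (81.8%) had more than 1 start, against 34.1% of all named coding genes. Both shares count every distinct start. With starts within 500 bases merged, DVL2, AXIN1, GSK3B and CSNK1A1 had 1 start each, and the merged share of all named coding genes is not given here. The 7 nuclear genes found ran from PYGO1 at 20.7 kb to TCF7L1 at 203 kb, TCF7 had 5 starts, and no window was shared.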

How the data were processed

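The file deposited by the authors is the gene annotation of the cattle reference, with Ensembl identifiers and build ARS-UCD1.2 per the file header. It gives feature coordinates, 1-based and inclusive. Alignment with Cell Ranger ATAC is credited to the submitters' processing notes, which also list Cell Ranger, and use of Signac 1.2.1 to the series text; no other version is stated in the text used here. Peak and fragment values were not analysed here, so there is no depth and no test between groups. The labels put the 8 libraries in 7 groups.

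The members and lists were chosen with earlier results of these data known. Where a record carries 2 names, the earlier one was used. One transcript stood for each gene: the longest coding sequence (stop codon not counted), then most exons, then lowest identifier. Gaps were measured between gene bodies. Every member is named, with values for the extremes of each class; in each pathway list the longest, the shortest and the gene with most starts are named, and NOTUM, DKKL1 and FRZB were named after their values were seen. The intron phase comparison was added after seeing the data. Code (Python 3.11.15, matplotlib 3.10.9) was tested on a simulated annotation of 3000 genes and recovered every exon number, start, phase and window overlap. The simulated gene bodies did not overlap and all their exons were coding, so nested genes and untranslated exons were not tried. The planned protein and promoter features need sequence, which was not used here.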

Additional observations from a re-analysis of the deposited data

How the results depend on the processing

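For 26 results, 57 values under alternative settings were computed. Of these, 49 stayed within 1.5 times the reported value and 8 did not. Some of the 49 could not have moved. A class median is unchanged without its longest and shortest member, and a gene with 1 transcript offers no other transcript to choose. Spliced length in place of the gene's span gave medians of 2.045 kb for WNT, 2.04 kb for SFRP and 1.93 kb for DKK, since introns no longer count, and 2.14 kb for FZD. With starts within 500 bases merged, 1 FZD gene (FZD6) and 1 DKK gene (DKK3) kept more than 1 start. With 5 kb upstream, 3 WNT, 2 FZD and 1 SFRP windows met another coding window. The number of single-exon Frizzled genes was 6 under both alternatives. These genes had 1 transcript each, so requiring a single exon in every transcript could not change it. The number of WNT genes near another was 6 at 50 kb, where WNT3A and WNT9A drop out, and 8 at 500 kb or between starts. The succession of phases 2, 1 and 0 was found in 15 WNT genes under both alternatives, which were added after seeing the data. Lengths, exon numbers and start numbers depend on how completely Ensembl annotated each gene in cattle, and no error can be put on them. No paired analysis was possible because the annotation belongs to no sample.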

Other observations

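Some related members also had related neighbours, which was noticed in the table of nearest coding genes and not looked for by a rule. Downstream of WNT2 the next coding gene was ST7, 16.1 kb away and convergent. WNT2B instead lay wholly inside the body of ST7L, which is on the opposite strand. Upstream of the inhibitor gene SFRP1 lay GOLGA7 at 164 kb, and upstream of SFRP5 lay GOLGA7B at 74.2 kb, both divergent. The kinase gene CDK14 preceded FZD1 by 49.4 kb and CDK15 preceded FZD7 by 144 kb, both on the receptor's own strand. On the ligand side, ARF1 followed WNT3A at 16.2 kb and ARF3 followed WNT10B at 8.17 kb, both in tandem. These are 4 sets picked out of the neighbours of 37 genes, and how often related genes share related neighbours across the genome was not tested.

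Distances to the nearest coding gene differed widely. FZD8 had the emptiest upstream side, with 1013 kb to OPTN, while DKK4 had 1.17 kb on its downstream side to the DNA polymerase gene POLB. FZD10 lay 492 kb from TMEM132D upstream, and DKK2 524 kb from PAPSS1.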
